A study of Homo sapiens with 9 samples.

Results

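The genes described here encode the proteins of the cytosolic ribosome, and 80 of the 58233 gene identifiers in the count files belong to them. They were chosen by name alone: protein-coding genes of GENCODE release 29 whose symbol is RPL or RPS followed by a number and at most 1 letter, together with the stalk genes RPLP0, RPLP1 and RPLP2 and the laminin-receptor gene RPSA. RPS4Y1, RPS4Y2 and RPL3L were left out by the rule, and genes whose names differ in form, such as FAU, are outside it. The set holds 45 genes of the large subunit, 32 of the small subunit and 3 of the stalk. RNA came from UPCI-SCC-040, an established squamous carcinoma line from the tongue, in 3 groups of 3 libraries. Control cells received no TGF-β1, and the other groups received 5 ng/ml TGF-β1 for 48 h or for 72 h. Each group held 1 library from passage 12, 1 from passage 13 and 1 from passage 8. Cells were grown with serum, while TGF-β1 was given in medium free of serum and antibiotics. Whether the control medium also lacked serum is not in the labels. An effect of TGF-β1 cannot be told apart from one of serum or of culture time.

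A cytosolic ribosome is built from a small subunit, which reads the messenger RNA, and a large subunit, which joins amino acids. Each contains 1 copy of nearly every ribosomal protein, and the acidic stalk proteins that recruit translation factors to the large subunit are the known exception. Ribosomal protein messenger RNAs are short, abundant in growing cells, and mostly begin with a terminal oligopyrimidine (TOP) tract, a C followed by a run of C and T, through which the kinase mTORC1 and the protein LARP1 govern their translation and stability. Many also carry small nucleolar RNAs in their introns and have numerous processed pseudogenes.

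Start sites show the feature that most of these genes share. In the RefSeq promoter table (GRCh38.p14), 64 of the 80 genes had a window around their start. A C within 5 bases of the start, followed on the gene's own strand by at least 4 C or T, was present in 50 of the 64 (78.1%), against 5749 of 27305 windows of all genes (21.1%). The following 30-base windows, 15 bases on each side of the start and read 5′ to 3′ on the strand of the gene, are shown for genes with large falls (RPSA, RPS24, RPL36A, RPLP0, RPL35 and RPS27A), for RPS6 and RPS16, and for the paralogs RPS27 and RPS27L, with the matched pyrimidine run in capitals.
RPSA, chr3:39406705-39406734, plus strand: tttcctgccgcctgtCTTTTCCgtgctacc
RPS24, chr10:78033848-78033877, plus strand: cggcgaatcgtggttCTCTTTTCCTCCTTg
RPL36A, chrX:101390996-101391025, plus strand: tttgcctcgcggtttCTTTCTTTCCgcgcc
RPLP0, chr12:120201097-120201126, minus strand: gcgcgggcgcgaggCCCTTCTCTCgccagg
RPL35, chr9:124861943-124861972, minus strand: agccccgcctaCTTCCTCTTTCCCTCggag
RPS27A, chr2:55231888-55231917, plus strand: taaggagtgacacacaagacccagactctt
RPS6, chr9:19380222-19380251, minus strand: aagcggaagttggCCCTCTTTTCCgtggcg
RPS16, chr19:39435935-39435964, minus strand: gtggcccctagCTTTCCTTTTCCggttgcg
RPS27, chr1:153990747-153990776, plus strand: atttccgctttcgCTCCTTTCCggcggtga
RPS27L, chr15:63157463-63157492, minus strand: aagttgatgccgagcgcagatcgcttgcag
RPS27 and RPS27L encode closely related proteins, and only the first has the run in its window. RPS27A, which fell about as far as RPL35 at 72 h, has no run in its window. Alternative starts were not searched, so a gene without the run here may carry it at another start. Beyond the start itself, the 300-base windows of the 64 genes held CCGGAAGT on either strand in 15.6% (4.44% of all windows), AAGATGGC in 9.38% (3.03%) and TATAAA in 9.38% (12.0%). These letters are a description of the windows and do not show that a factor binds.

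The libraries held 12544690 to 20438727 counts. Of the 80 genes, 78 passed the filter on low counts and were tested with the 15440 genes that passed. RPL39L and RPL10L, paralogs of RPL39 and RPL10 known chiefly from testis, had 3 counts and 1 count over all 9 libraries and were not tested. All 9 squamous keratinocyte markers (KRT5 and TP63 among them) averaged over 10 CPM, the count scaled to library size, while the summed level of 6 leukocyte markers stayed at or below 1.07 CPM and that of 4 endothelial markers at or below 2.66 CPM. Of 7 fibroblast markers the sum was 0.241 to 1.00 CPM in controls and 1.99 to 22.4 CPM at 72 h. Nothing beyond the passage number says that replicates were separate experiments, so p-values measure the spread between these samples.

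One library stood apart for these genes. The 72 h library of passage 8 was the lowest of all 9 for 70 of the 78 tested ribosomal protein genes, against 21.2% of all tested genes. In the same library MALAT1, a nuclear long noncoding RNA, took 1.54% of counts, against 0.247% to 0.351% in controls and 0.409% to 0.507% in the other treated libraries. Its part in the results below was not tested, and values without that library stand beside the summaries that it moves.

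In controls the ribosomal protein genes took 2.45%, 2.86% and 2.45% of gene counts in passages 12, 13 and 8. At 48 h they took 2.05%, 1.74% and 1.62%. At 72 h they took 1.57%, 1.81% and 1.02%. Every treated library lay below every control, while the 48 h and 72 h libraries overlapped. The group means were 2.59% ± 0.236, 1.81% ± 0.221 and 1.47% ± 0.408 (SD, n = 3 each), and the 72 h mean without the library of passage 8 was 1.69% ± 0.173 (SD, n = 2). Shares are relative: fewer of these transcripts per cell and more RNA from other genes cannot be told apart. Within a passage, the 72 h share was 0.641, 0.634 and 0.414 of the control share in passages 12, 13 and 8. From 48 h to 72 h it changed by factors of 0.764, 1.04 and 0.625, so passage 13 showed no further fall.

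**Figure D1:**
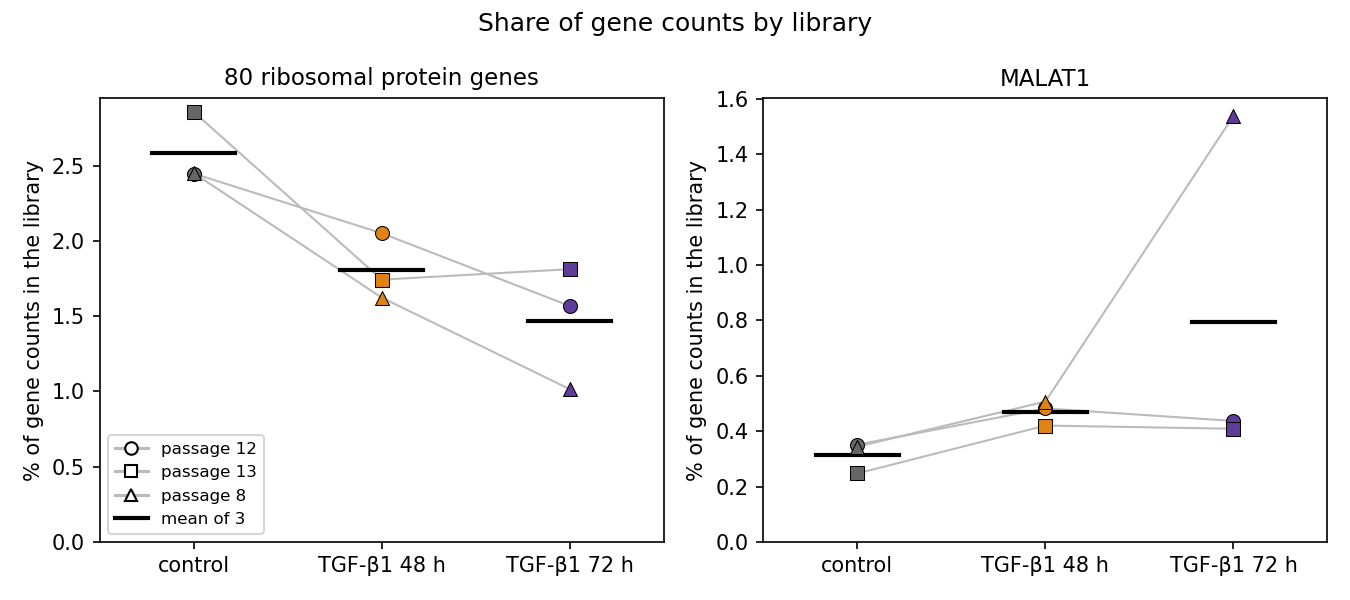
Left, the summed share of gene counts held by the 80 ribosomal protein genes, and right, that of MALAT1, in % of all gene counts of a library; symbols mark passages, grey lines join libraries of a passage and black bars are means of 3. Ribosomal protein shares of the treated libraries, at most 2.05%, all lie below the controls, and the 72 h library of passage 8 has the lowest ribosomal protein share (1.02%) and the highest MALAT1 share (1.54%).

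The balance of the subunits shifted slightly while both shares were lower after treatment. Counts of small-subunit genes were 0.612 ± 0.0116 of those of large-subunit genes in controls, 0.600 ± 0.00398 at 48 h and 0.575 ± 0.0136 at 72 h (SD, n = 3 each). The control range, 0.601 to 0.624, did not overlap the 72 h range, 0.566 to 0.590. Without the library of passage 8 the 72 h mean was 0.579 and the range 0.568 to 0.590. Leaving out a library cannot widen a range.

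Levels differed widely among the genes in untreated cells. Per kilobase of median transcript length, high levels in controls were those of RPL35 at 1258 RPKM (CPM per kilobase), RPL37A at 1184 and RPL19 at 1149. RPS26, RPL7 and RPS10 were lowest, at 7.39, 7.03 and 6.41 RPKM. The lowest values belong to genes with few or no unique coding stretches. Of all 50-base stretches in the coding sequences of RPS26 and RPS10 none was unique in the GENCODE transcripts, and 0.288% were in RPL7. Stretches here and below are those of coding sequence only, and bases outside it were not checked. Of the 80 genes, 77 shared 50-base stretches with another gene, in each case including a pseudogene. The median control level was 126 RPKM for the 40 tested genes with under 50% unique stretches and 574 RPKM for the 38 others. How reads with several alignments were counted is not given in the sources used here, so levels of RPS26, RPS27, RPS10, RPL7, RPL21, RPL36A, RPS3A, RPL39, RPL41, RPL17 and RPS28 may be too low or may hold reads of their copies. With 78 genes as points that share libraries, the Spearman correlation between the unique share and the log2 fold change was 0.30 at 48 h and 0.00 at 72 h.

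After 48 h of TGF-β1, 18 of the 78 tested genes fell and 0 rose (edgeR quasi-likelihood test, Benjamini-Hochberg adjusted p under 0.05). This is 23.1% of them, against 16% of all 15440 tested genes called lower and 14.9% called higher. At an unadjusted p under 0.05, 29 were lower and 0 higher, but the share of all tested genes under this cut was not counted. The log2 fold change was negative for 76 of 78, its median was -0.44 (73.5% of the control level), and the median of all tested genes was -0.00. Of all tested genes 50.1% had a negative value. The 3 control values lay above the 48 h values for 58 genes, against 28.1% of all tested genes, and below them for 1, RPS27L (25.6% of all tested genes). Each single control or 48 h library bore on the count: it was 6, 3 and 7 without the control of passage 12, 13 or 8, and 7, 8 and 5 without the 48 h library of those passages. As shares of the 78 genes these are 7.69%, 3.85%, 8.97%, 8.97%, 10.3% and 6.41%, where 9.18%, 8.46%, 9.66%, 8.45%, 12.0% and 11.3% of all tested genes were called lower. The share of calls at 48 h was therefore near or below that of all genes in each of these 6 fits. Without the 72 h library of passage 8 it was 57.7%, against 20.1%. By subunit, 10 of 43 large-subunit genes, 8 of 32 small-subunit genes and 0 of 3 stalk genes fell.

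After 72 h, 53 of the 78 fell and 0 rose (67.9%, against 19.4% of all tested genes called lower and 20.4% called higher). At an unadjusted p under 0.05, 64 were lower and 0 higher, again without a count over all tested genes. The log2 fold change was negative for 77 of 78, against 48.3% of all tested genes, with a median of -0.73 (60.2% of the control level) beside 0.03 for all tested genes. All 3 control values lay above the 72 h values for 70 genes and below them for 0, against 27.7% and 27.3% of all tested genes. Those called were 29 of 43 in the large subunit, 22 of 32 in the small subunit and 2 of 3 in the stalk. Of the calls, 17 genes passed at both times, 36 at 72 h alone and RPL23A at 48 h alone, and these counts do not show that the times differ. Both comparisons share the control libraries. Each rests on few libraries: without the passage 13 control the counts were 3 at 48 h and 22 at 72 h (28.2%, against 13.0% of all tested genes), and without the 72 h library of passage 8, which takes part in the shared estimate of spread, they were 45 and 48 (61.5% at 72 h, against 17.9%), with a median log2 fold change of -0.55 at 72 h.

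Each passage gave the same direction at 72 h. Against the control of its own passage, 76, 77 and 77 of the 78 genes were lower in passages 12, 13 and 8, where 51.4%, 50.3% and 47.8% of all tested genes were lower. At 48 h the counts were 65, 76 and 74, where 50.8%, 50.7% and 51.9% of all tested genes were lower. Without any library of passage 8, 22 genes fell at 48 h (28.2%, against 15.1% of all tested genes) and 45 at 72 h (57.7%, against 16.0%).

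**Figure D2:**
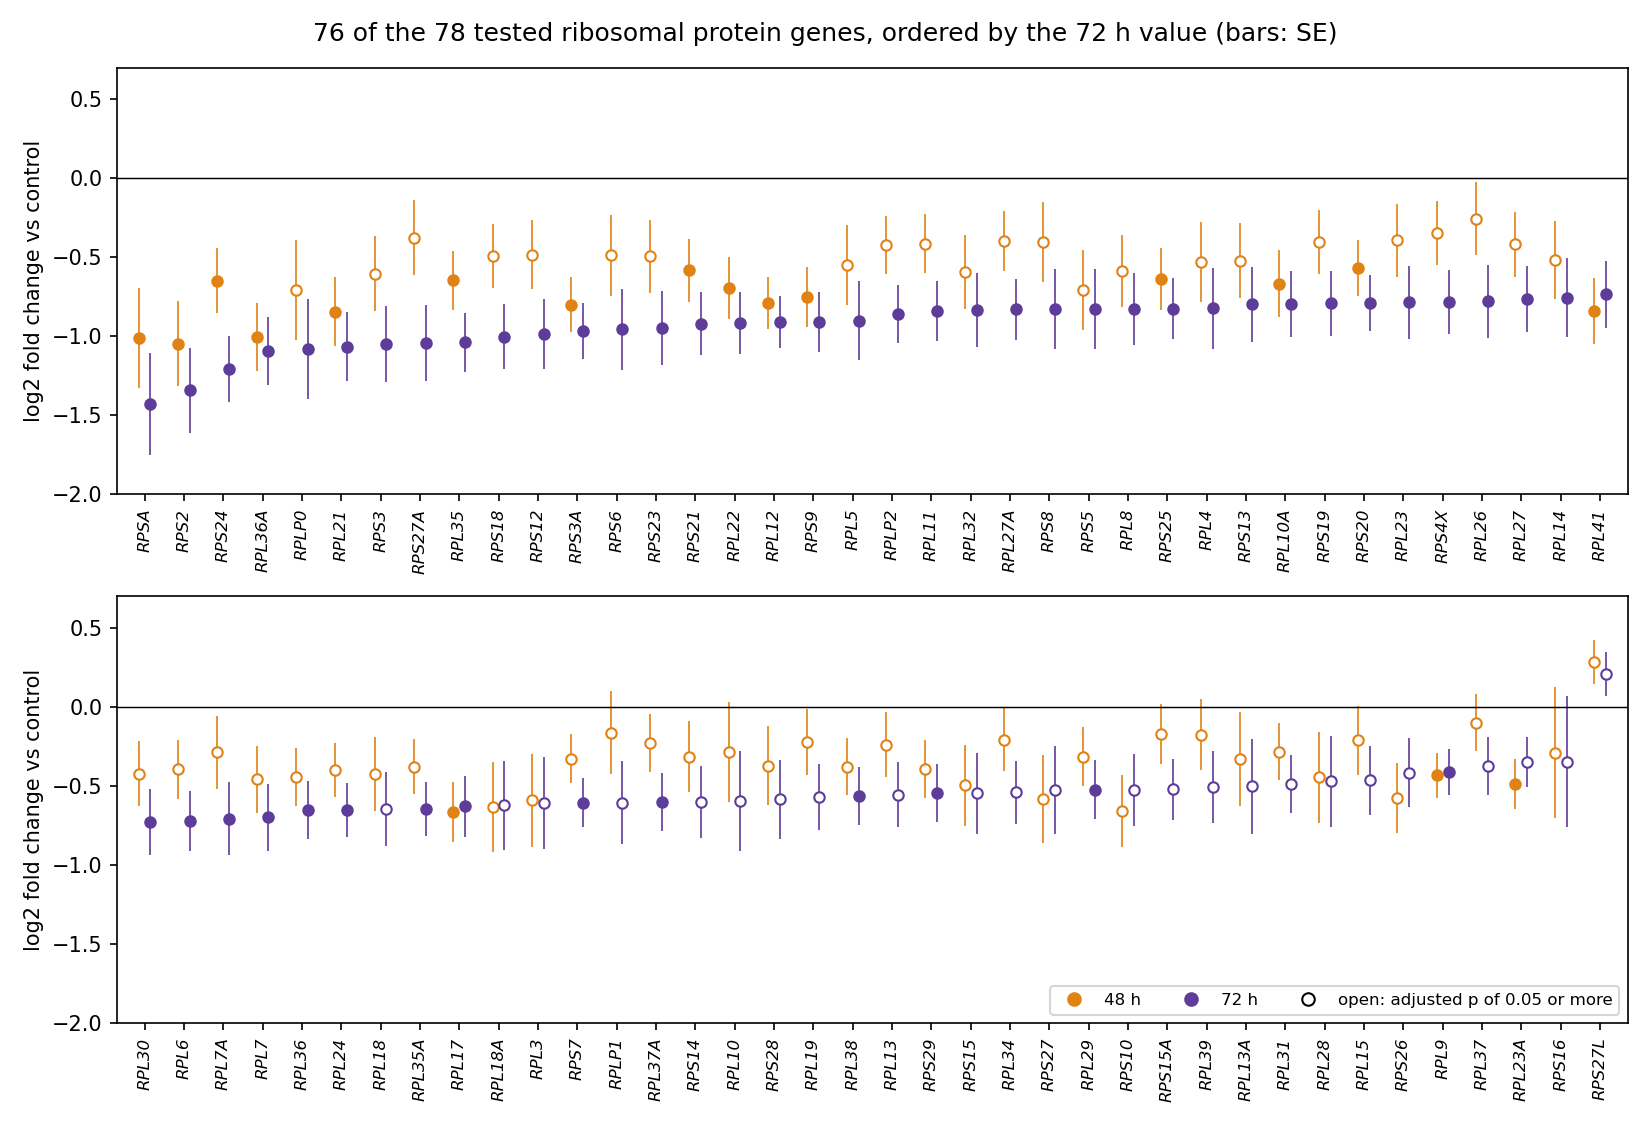
Log2 fold change against control (y axis) of 76 of the 78 tested ribosomal protein genes at 48 h (orange) and 72 h (purple), ordered by the 72 h value; bars are SE and open points have an adjusted p of 0.05 or more. All points shown but those of RPS27L lie below 0, from -1.43 for RPSA at 72 h to 0.28 for RPS27L at 48 h.

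The largest falls were in the small subunit. RPSA, which sits at the mRNA exit side of the small subunit, measured 64.1, 106 and 91.0 CPM in the controls of passages 12, 13 and 8. It measured 47.5, 45.5 and 36.4 CPM at 48 h and 41.9, 38.3 and 16.9 CPM at 72 h. Every treated library was below every control, and the 72 h library of passage 8 was the lowest. Its log2 fold change was -1.01 ± 0.32 (SE) at 48 h (edgeR adjusted p = 0.039) and -1.43 ± 0.32 at 72 h (edgeR adjusted p = 0.00805). The 48 h call was lost under 9 of 21 alternative fits, among them that without the passage 13 control (log2 fold change -0.85, adjusted p = 0.131). The 72 h call was kept under all 21, with -1.26 without that control (adjusted p = 0.0332). For genes below, a call given as lost without the passage 13 control may also have been lost under other fits.

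RPS2, a protein near the entry of the mRNA channel, measured 215, 285 and 281 CPM in controls, 140, 133 and 105 CPM at 48 h and 135, 113 and 60.3 CPM at 72 h. The groups did not overlap with the controls at either time. The log2 fold change was -1.05 ± 0.27 at 48 h (edgeR adjusted p = 0.0171) and -1.34 ± 0.27 at 72 h (adjusted p = 0.00456). The 48 h call was lost under 3 of 21 alternative fits, with adjusted p = 0.062 without the passage 13 control.

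RPS24, a gene mutated in some families with Diamond-Blackfan anaemia, had the smallest adjusted p of the set at 72 h. It measured 444, 531 and 376 CPM in controls, 303, 275 and 284 CPM at 48 h and 226, 222 and 136 CPM at 72 h. The 3 groups were apart from one another. The log2 fold change was -0.65 ± 0.21 at 48 h (edgeR adjusted p = 0.0392) and -1.21 ± 0.21 at 72 h (adjusted p = 0.00231). The 48 h call was lost under 7 of 21 alternative fits, with adjusted p = 0.147 without the passage 13 control.

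RPS3, which has a second role in DNA repair, went from 390 to 472 CPM in controls to 126 to 260 CPM at 72 h, a log2 fold change of -1.05 ± 0.24 (adjusted p = 0.00767). RPS27A, made as a fusion with ubiquitin, measured 259, 305 and 230 CPM in controls, 206, 176 and 230 CPM at 48 h and 137, 167 and 81.7 CPM at 72 h. Its 48 h libraries overlapped the controls and its 72 h libraries did not. The 72 h log2 fold change was -1.04 ± 0.24 (adjusted p = 0.00792), against -0.38 ± 0.24 at 48 h (adjusted p = 0.255). RPS6, the small-subunit protein phosphorylated downstream of mTORC1, measured 662, 748 and 607 CPM in controls and 370, 464 and 207 CPM at 72 h, without overlap. Its log2 fold change was -0.96 ± 0.26 at 72 h (adjusted p = 0.0153, and 0.0579 without the passage 13 control) and -0.49 ± 0.26 at 48 h (adjusted p = 0.169). RPS19, the gene mutated most often in Diamond-Blackfan anaemia, measured 466, 567 and 469 CPM in controls and 345, 311 and 211 CPM at 72 h (log2 fold change -0.79 ± 0.21, adjusted p = 0.0129, and 0.0554 without the passage 13 control).

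RPS3A and RPS9 fell at both times. All 50-base stretches in the coding sequence of RPS3A occur elsewhere. Its log2 fold changes were -0.80 ± 0.18 at 48 h (edgeR adjusted p = 0.00863) and -0.97 ± 0.18 at 72 h (adjusted p = 0.00279). RPS9 had -0.75 ± 0.19 (adjusted p = 0.0157) and -0.91 ± 0.19 (adjusted p = 0.0052), and its 48 h call was lost without the passage 13 control (adjusted p = 0.060) or without the 48 h library of passage 8. RPS18 measured 559, 625 and 500 CPM in controls and 290, 345 and 204 CPM at 72 h, a log2 fold change of -1.0 ± 0.20 (adjusted p = 0.00461).

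In the large subunit the strongest fall at 72 h was that of RPL36A. It measured 10.6, 11.3 and 13.0 CPM in controls, 6.53, 6.19 and 4.56 CPM at 48 h and 6.09, 5.98 and 4.20 CPM at 72 h, with all treated libraries below all controls. The log2 fold change was -1.0 ± 0.22 at 48 h (adjusted p = 0.008) and -1.10 ± 0.22 at 72 h (adjusted p = 0.00404). RPL36A has no unique 50-base stretch in its coding sequence and overlaps the read-through gene RPL36A-HNRNPH2 over 8.40% of its exons. Its counts are therefore uncertain. RPL21, with 64 other genes sharing its stretches, likewise stood at 10.4, 10.0 and 10.7 CPM in controls and 5.92, 5.53 and 3.40 CPM at 72 h (log2 fold change -1.07 ± 0.22, adjusted p = 0.00489). RPL35, with 54.7% unique stretches, measured 565, 626 and 527 CPM in controls, 386, 362 and 349 CPM at 48 h and 312, 323 and 200 CPM at 72 h. Its 3 groups did not overlap, and the log2 fold change was -0.65 ± 0.19 at 48 h (adjusted p = 0.0262, lost without any single control or 48 h library) and -1.04 ± 0.19 at 72 h (adjusted p = 0.0027). RPL12, a protein at the base of the stalk, had the smallest adjusted p at 48 h (log2 fold change -0.79 ± 0.17, adjusted p = 0.00703) and -0.91 ± 0.17 at 72 h (adjusted p = 0.00273).

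RPL5 and RPL11 leave the ribosome together with 5S ribosomal RNA to bind MDM2, the ubiquitin ligase of p53. RPL5 measured 743, 863 and 738 CPM in controls, 620, 497 and 482 CPM at 48 h and 447, 551 and 257 CPM at 72 h, and no treated library reached a control. The change was -0.55 ± 0.25 at 48 h (adjusted p = 0.121) and -0.90 ± 0.25 at 72 h (adjusted p = 0.0183, and 0.0659 without the passage 13 control). RPL11 measured 606, 707 and 583 CPM in controls and 378, 418 and 264 CPM at 72 h, again without overlap. Its log2 fold change was -0.41 ± 0.19 at 48 h (adjusted p = 0.121) and -0.84 ± 0.19 at 72 h (adjusted p = 0.00731).

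RPL22, an RNA-binding protein of the large subunit, fell at both times, by 0.70 (SE 0.20, adjusted p = 0.0233) and by 0.92 (SE 0.20, adjusted p = 0.00562) on the log2 scale, and its 48 h call was lost without any single control or 48 h library (adjusted p = 0.0635 without the passage 13 control). RPL41, the shortest coding sequence of the set at 75 bases, measured at least 17.8 CPM in each control, 12.7, 11.9 and 7.42 CPM at 48 h and 13.5, 10.8 and 10.3 CPM at 72 h. Each treated group lay below the controls (log2 fold change -0.84 ± 0.21, adjusted p = 0.015, and -0.74 ± 0.21, adjusted p = 0.0195). Without the passage 13 control its adjusted p was 0.0544 and 0.0632. RPL13A, a protein also released to form a translation silencing complex, did not pass: it stood at 478, 569 and 477 CPM in controls, 570, 316 and 326 CPM at 48 h and 322, 509 and 244 CPM at 72 h, with overlap at both times (adjusted p = 0.431 and 0.203). RPL10, a late-joining protein at the subunit interface, had log2 fold changes of -0.29 ± 0.31 and -0.59 ± 0.31 (adjusted p = 0.52 and 0.159), and 52.7% of its exon bases are overlapped by antisense genes. RPL39 had -0.18 ± 0.23 and -0.51 ± 0.23 (adjusted p = 0.585 and 0.099).

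The stalk genes differed in their test results. RPLP0, the stalk base that is often used as a reference gene for quantitative PCR, measured 550, 777 and 571 CPM in controls, 436, 379 and 348 CPM at 48 h and 333, 412 and 152 CPM at 72 h. Treated libraries did not overlap with controls. Its log2 fold change was -0.71 ± 0.32 at 48 h (adjusted p = 0.116) and -1.08 ± 0.32 at 72 h (adjusted p = 0.0231, and 0.0857 without the passage 13 control). RPLP2 measured 374, 461 and 419 CPM in controls, 331, 309 and 296 CPM at 48 h and 254, 269 and 168 CPM at 72 h, with no overlap between any of the 3 groups (72 h log2 fold change -0.86 ± 0.18, adjusted p = 0.0058). Its partner RPLP1 measured 158, 169 and 216 CPM in controls and 159, 124 and 73.3 CPM at 72 h, which overlapped (log2 fold change -0.61 ± 0.26, adjusted p = 0.0942).

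**Figure D3:**
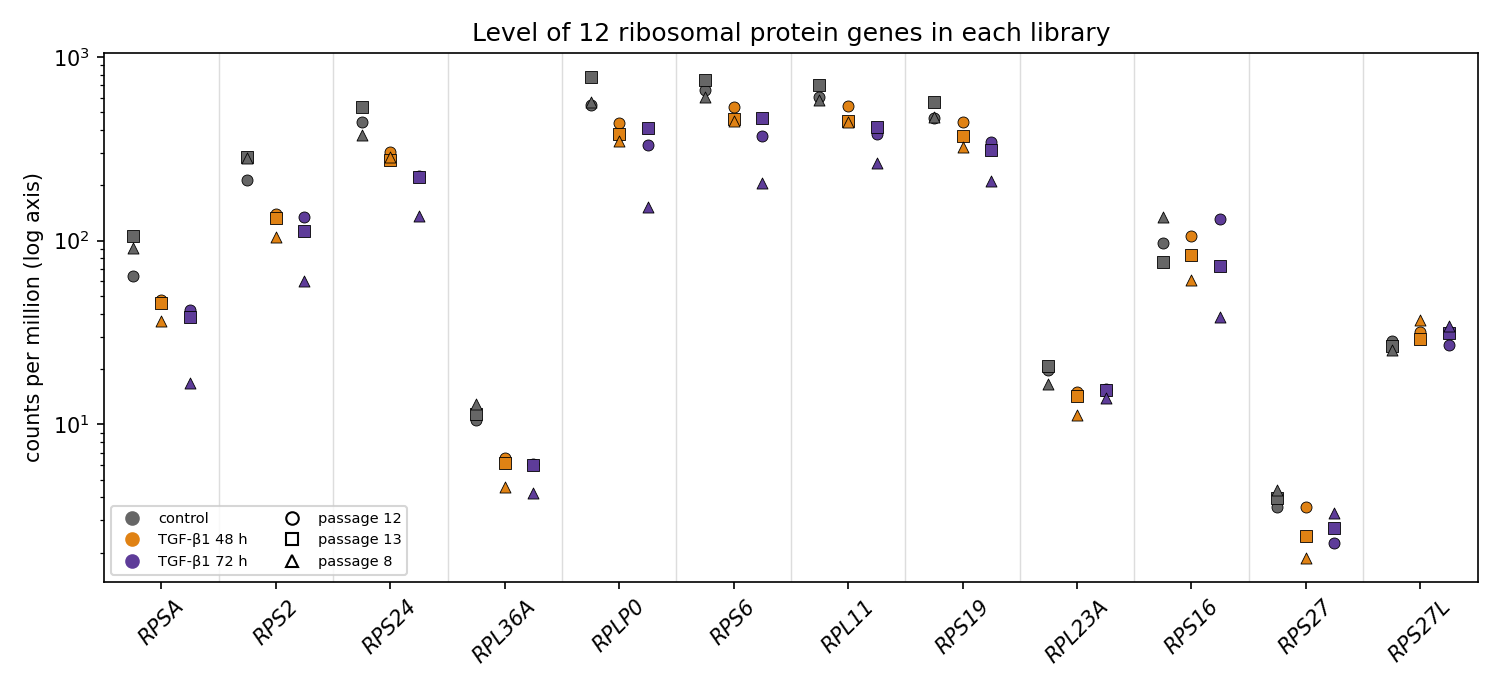
Level in each library (CPM, log axis) of 12 ribosomal protein genes; colour marks the group and symbol the passage. RPSA, RPS2, RPS24, RPL36A, RPLP0, RPS6, RPL11, RPS19, RPL23A and RPS27 have every 72 h point below the controls, while RPS16 and RPS27L overlap them. RPL23A and RPS27 did not pass the test at 72 h.

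The genes at the other end showed small or no measured falls. RPS27L, whose transcription is known to be induced by p53, was the only tested gene of the set with a positive log2 fold change at 72 h. It measured 28.3, 26.6 and 25.2 CPM in controls, 31.7, 29.1 and 37.0 CPM at 48 h and 27.1, 31.5 and 34.2 CPM at 72 h. The 48 h libraries all lay above the controls and the 72 h libraries overlapped them. The log2 fold change was 0.28 ± 0.14 (adjusted p = 0.145) and 0.21 ± 0.14 (adjusted p = 0.253), so neither change passed the test. With a correction for GC content and transcript length it was 0.41 at both times, with adjusted p = 0.0326 and 0.0281. Its paralog RPS27 has no unique 50-base stretch in its coding sequence and 23 to 74 counts per library. RPS27 measured 3.56, 3.97 and 4.37 CPM in controls and 2.25, 2.73 and 3.27 CPM at 72 h (log2 fold change -0.53 ± 0.28, edgeR adjusted p = 0.156).

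RPS16 varied most between passages: 96.9, 76.1 and 134 CPM in controls and 130, 72.5 and 38.4 CPM at 72 h, highest at 72 h in passage 12 and lowest in passage 8. Its log2 fold change of -0.35 ± 0.42 (adjusted p = 0.531) turned to 0.23 without passage 8. RPL37 stood at 538, 624 and 517 CPM in controls and 428, 511 and 357 CPM at 72 h (log2 fold change -0.37 ± 0.18, adjusted p = 0.125). At 48 h the negative values nearest 0, none of which passed, were those of RPL37, RPLP1, RPS15A, RPL39, RPL34 and RPL15, with log2 fold changes from -0.10 to -0.21 and adjusted p from 0.457 to 0.706. RPL15 had -0.46 ± 0.22 (adjusted p = 0.117) and RPS26 -0.42 ± 0.22 (adjusted p = 0.153) at 72 h. RPL23A and RPL9 are rarely unique in sequence (7.88% and 9.49% of stretches), and their values near the threshold changed sides often: RPL9 had -0.43 ± 0.14 at 48 h (adjusted p = 0.044) and -0.41 ± 0.14 at 72 h (adjusted p = 0.0426), with calls lost under 16 and 15 of 21 alternatives, among them the absence of the passage 13 control (adjusted p = 0.0701 and 0.0627). RPL23A had -0.49 ± 0.16 at 48 h (adjusted p = 0.0407, lost under 11 of 21, and 0.140 without the passage 13 control) and -0.35 ± 0.16 at 72 h (adjusted p = 0.104).

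From 48 h to 72 h no gene of the set passed the test, as no tested gene did (0% of 15440). At an unadjusted p under 0.05, 8 of the 78 were lower and 0 higher, with no count over all tested genes beside them. DESeq2 also called 0 of the 78, where 0.11% of all tested genes were called lower. The log2 difference was negative for 70 of 78, against 46.7% of all tested genes, with a median of -0.27 beside 0.02 for all tested genes. Without the 72 h library of passage 8 58 of 78 were negative and the median was -0.06. In 10 genes (RPL7A, RPL11, RPL27A, RPL35, RPL37A, RPLP2, RPS4X, RPS18, RPS24 and RPS27A) each of the 72 h values lay below all 3 values at 48 h, against 5.17% of all tested genes, and in 0 they lay above (7.07%). The lowest differences were those of RPS27A (-0.67 ± 0.24, adjusted p = 0.528), RPS24 (-0.56 ± 0.21, adjusted p = 0.528), RPL26 (-0.52 ± 0.23, adjusted p = 0.551) and RPS18 (-0.51 ± 0.20, adjusted p = 0.533). The highest were RPS26 (0.16 ± 0.22, adjusted p = 0.83), RPL23A (0.14 ± 0.16, adjusted p = 0.792), RPS10 (0.13 ± 0.23, adjusted p = 0.869) and RPL41 (0.10 ± 0.21, adjusted p = 0.893). Within passages 12 and 8, 69 and 71 of the 78 genes were lower at 72 h than at 48 h, while in passage 13 the count was 36. Of all tested genes 48.7%, 45.8% and 50.4% were lower in passages 12, 8 and 13.

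Each gene's share of the summed ribosomal protein counts shows which genes kept the proportions of the set, whatever the scaling of the libraries. At 72 h the shares of 17 genes were below, and those of 13 above, all control values. RPSA went from 0.349% ± 0.0689 of the ribosomal protein counts to 0.211% ± 0.0487 (log2 ratio -0.73), RPS2 from 1.05% ± 0.152 to 0.678% ± 0.141 (-0.63) and RPS24 from 1.80% ± 0.171 to 1.31% ± 0.101 (-0.46, SD, n = 3 each). Without the 72 h library of passage 8 the log2 ratios were -0.57 for RPSA, -0.53 for RPS2 and -0.47 for RPS24. In the other direction RPS27L went from 0.108% ± 0.0109 to 0.224% ± 0.0935 (log2 ratio 1.05), and RPL23A and RPL37 had log2 ratios of 0.46 and 0.40. Those values rest in part on the 72 h library of passage 8, which had the highest share of each: without it the log2 ratios were 0.65 for RPS27L, 0.24 for RPL23A and 0.27 for RPL37. Without that library 21 genes had shares below and 16 above all control values, but leaving out a library can only keep or raise such counts. Of the 17 with a lower share, 13 belong to the small subunit, which holds 32 of the 78 tested genes. Among these 13 are RPSA, RPS2, RPS24, RPS3, RPS27A, RPS18, RPS6, RPS3A and RPS9. The others of the 17 are RPLP0, RPL36A, RPL35 and RPL5. At 48 h the shares of 20 genes were below and 9 above all control values, with RPS2, RPL36A and RPSA lowest (-0.63, -0.60 and -0.58) and RPS27L highest (0.72). Of the 20 with a lower share at 48 h, 10 belong to the small subunit. Shares of the same sum are tied, so a lower share of some genes raises that of others. These ratios and counts are descriptions without a test, and no like count was made for other genes.

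**Figure D4:**
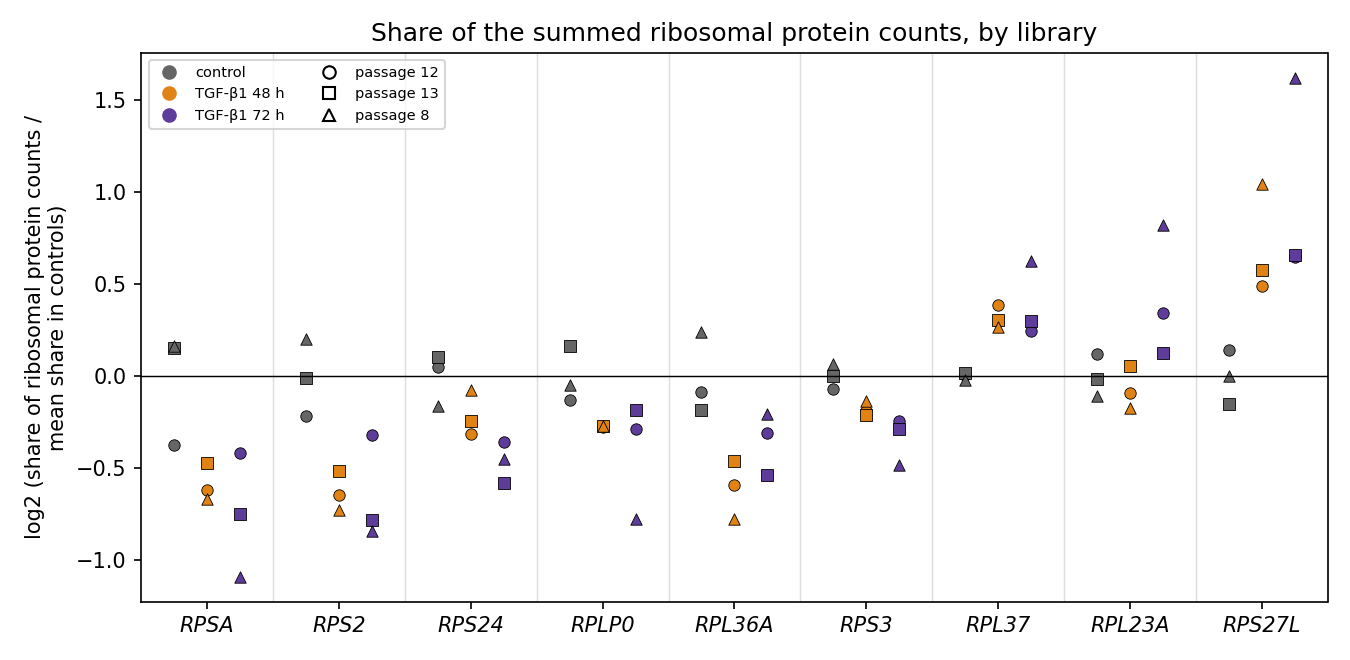
Log2 of each library's share of the ribosomal protein counts over the mean control share (y axis) for 9 genes with shares apart from the controls at 72 h; colour marks the group and symbol the passage. RPSA, RPS2 and RPS24 lie below the controls at 72 h, and RPL37, RPL23A and RPS27L above.

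The spread between libraries at 72 h rested on passage 8. Over the 78 genes, the median SD of log2 CPM came to 0.145 for controls, 0.196 for 48 h and 0.418 for 72 h libraries, beside 0.151, 0.243 and 0.308 for all tested genes. As shares of the ribosomal protein counts the same medians were 0.0691, 0.0995 and 0.137. With passages 12 and 13 alone the median SD of log2 CPM came to 0.126 for controls, 0.129 for 48 h and 0.146 for 72 h libraries, beside 0.128, 0.172 and 0.183 for all tested genes, and that of the shares was 0.0545, 0.0635 and 0.0865.

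Features outside the choice of the genes were set beside the changes. Genes with the TOP letters had a median log2 fold change of -0.79 at 72 h with 37 of 50 called, genes with a window without them -0.55 with 6 of 13 called, and genes with no window -0.79 with 10 of 15 called. The 28 genes that host small nucleolar RNAs had a median of -0.79 with 19 called, and the 50 others -0.68 with 34 called. Ribosomal protein transcripts are short, and the 961 other tested protein-coding genes with a median transcript under 1 kb had a median log2 fold change of -0.12 at 72 h with 25.6% called lower. At 48 h 22.1% of those short genes were called lower, near the 23.1% of the 78 ribosomal protein genes. The medians at 48 h were -0.15 and -0.44. Among the 2323 other tested genes at 100 CPM or more in controls the median was -0.18 with 34.1% called lower at 72 h, while the 58 ribosomal protein genes at that level had a median of -0.78 with 42 called (72.4%). At 48 h 26.1% of the 2323 were called lower (median -0.12), against 9 of the 58 (15.5%, median -0.42). The share of calls at 48 h was thus below that of other genes at this level.

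Pseudogenes of these genes, of which 728 of 1137 had any count, took 0.0221% ± 0.00225 of counts in controls, 0.0162% ± 0.000797 at 48 h and 0.0139% ± 0.0018 at 72 h (SD, n = 3 each). Of the 44 tested, 3 fell and 1 rose at 48 h, and 10 fell and 1 rose at 72 h, with median log2 fold changes of -0.39 and -0.60. The share that fell, 6.82% at 48 h and 22.7% at 72 h, was below the 16% of all tested genes at 48 h and near the 19.4% at 72 h. For stretches that a parent gene shares with its copies, the origin of a read cannot be told in these counts.

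Relatives outside the naming rule did not all follow. FAU, which encodes a small-subunit protein fused to a ubiquitin-like protein, had a log2 fold change of -0.52 ± 0.19 at 72 h (adjusted p = 0.0581). RPL22L1, the paralog of RPL22, measured 70.8, 72.0 and 66.4 CPM in controls, 14.2, 17.9 and 14.8 CPM at 48 h and 23.7, 21.9 and 21.5 CPM at 72 h. All treated values lay far below the controls, with log2 fold changes of -2.16 ± 0.13 (adjusted p = 4.19e-05) and -1.64 ± 0.13 (adjusted p = 0.000147), beyond any gene of the set. RPL7L1, a nucleolar relative of RPL7, fell by 0.48 (adjusted p = 0.0155, and 0.0686 without the passage 13 control) and fell by 0.74 (SE 0.12, adjusted p = 0.00174) on the log2 scale. RPL26L1 and RPL36AL did not pass at either time (72 h log2 fold change -0.34 and 0.09, adjusted p = 0.166 and 0.581). RPL3L, the striated muscle paralog of RPL3, rose from 1.93, 1.66 and 2.79 CPM to 17.9, 3.31 and 14.0 CPM at 48 h and 13.8, 6.10 and 14.0 CPM at 72 h (log2 fold change 2.47 ± 0.60, adjusted p = 0.0158, and 2.41 ± 0.60, adjusted p = 0.0129). Without the passage 13 control its adjusted p was 0.066 and 0.0557, and RPL3L was named after its values were seen.

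Other genes of the translation pathway were read from lists, whose counts stand against 16% of all tested genes called lower and 14.9% called higher at 48 h, and 19.4% and 20.4% at 72 h. Of 17 tested translation factors and related genes of the TOP class, 4 fell at 48 h (23.5%) and 6 at 72 h (35.3%), and 0 rose. NPM1, a nucleolar chaperone, fell by 1.43 on the log2 scale at 72 h (SE 0.27, adjusted p = 0.00314) and EEF1B2, a subunit of the elongation factor exchange complex, by 1.11 (SE 0.26, adjusted p = 0.0097). EEF1A1, which delivers aminoacyl-tRNA, measured 475, 557 and 461 CPM in controls and 351, 525 and 551 CPM at 72 h, which overlapped (log2 fold change -0.07 ± 0.20, adjusted p = 0.816). EEF2, the translocation factor, had -0.64 ± 0.23 (adjusted p = 0.0517), EIF4A2 0.09 ± 0.17 (adjusted p = 0.687) and TPT1 0.52 ± 0.29 (adjusted p = 0.172).

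Of 28 other initiation factors, 11 fell (39.3%) and 1 rose (3.57%) at 48 h, and 13 fell (46.4%) and 1 rose at 72 h (median log2 fold change -0.42 and -0.55). EIF3B fell by 0.92 (SE 0.17, adjusted p = 0.00333) and EIF6, which keeps large subunits from joining early, by 0.89 (SE 0.19, adjusted p = 0.00607) at 72 h, while EIF4G3 rose by 0.65 (SE 0.12, adjusted p = 0.00294) and EIF2B4 had 0.23 ± 0.13 (adjusted p = 0.197). Of 17 genes in a list of ribosomal protein chaperones, assembly partners and the p53 regulators MDM2 and MDM4, 12 fell at 48 h and 12 at 72 h (70.6% each), 10 of them at both times, and 0 rose, with RRS1 at -1.41 ± 0.26 (adjusted p = 0.0029) and PDCD2L at -1.13 ± 0.22 (adjusted p = 0.00383) at 72 h. AAMP and RPS19BP1 had 0.24 ± 0.11 (adjusted p = 0.11) and -0.06 ± 0.12 (adjusted p = 0.739).

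Host genes of small nucleolar RNAs, whose spliced RNAs often carry TOP starts, had the lowest medians of the lists. Of 16, namely 15 noncoding genes and the protein-coding gene TAF1D, 14 fell at both times (87.5%, median log2 fold change -1.17 and -1.27), and 0 rose. SNHG1 measured 233, 290 and 290 CPM in controls and 70.0, 58.5 and 34.2 CPM at 72 h (log2 fold change -2.32 ± 0.24, adjusted p = 0.000328), and SNHG8 had -2.13 ± 0.34 (adjusted p = 0.00181). GAS5, a host transcript known to be stabilised when growth stops and translation slows, measured 144, 150 and 147 CPM in controls, 99.4, 66.6 and 56.6 CPM at 48 h and 65.2, 93.5 and 43.5 CPM at 72 h. It fell by 0.99 (SE 0.28, adjusted p = 0.0254) and fell by 1.13 (SE 0.28, adjusted p = 0.0116), and the 48 h call was lost without any single control (0.0631 to 0.0733). SNHG25 and SNHG20 had -0.31 ± 0.30 (adjusted p = 0.423) and -0.13 ± 0.26 (adjusted p = 0.702) at 72 h.

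Of 20 tested regulators of mTORC1 and LARP1, 2 fell (10%) and 3 rose (15%) at 48 h, and 3 fell and 3 rose at 72 h (15% each). These shares are near or below those of all tested genes. RHEB, the activator of mTORC1, fell by 0.63 at 72 h (SE 0.12, adjusted p = 0.00345). CASTOR2 and AKT1S1, both of which restrain mTORC1, rose by 0.95 (SE 0.24, edgeR adjusted p = 0.0109) and 0.72 (SE 0.16, adjusted p = 0.00697). Each call was lost under 1 of 21 alternatives. For CASTOR2 it was the absence of passage 8 (adjusted p = 0.0767). For AKT1S1 it was the GC and exon length correction (log2 fold change 0.38, adjusted p = 0.0842). LARP1 had -0.29 ± 0.17 (adjusted p = 0.2), DDIT4 0.65 ± 0.53 (adjusted p = 0.351) and SESN3 -0.59 ± 0.42 (adjusted p = 0.282). MALAT1 measured 3418, 2372 and 3277 CPM in controls and 4471, 4165 and 15618 CPM at 72 h (adjusted p = 0.0375), a call lost without the 72 h library of passage 8 (log2 fold change 0.52, adjusted p = 0.0672) and under 9 other alternatives.

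**Figure D5:**
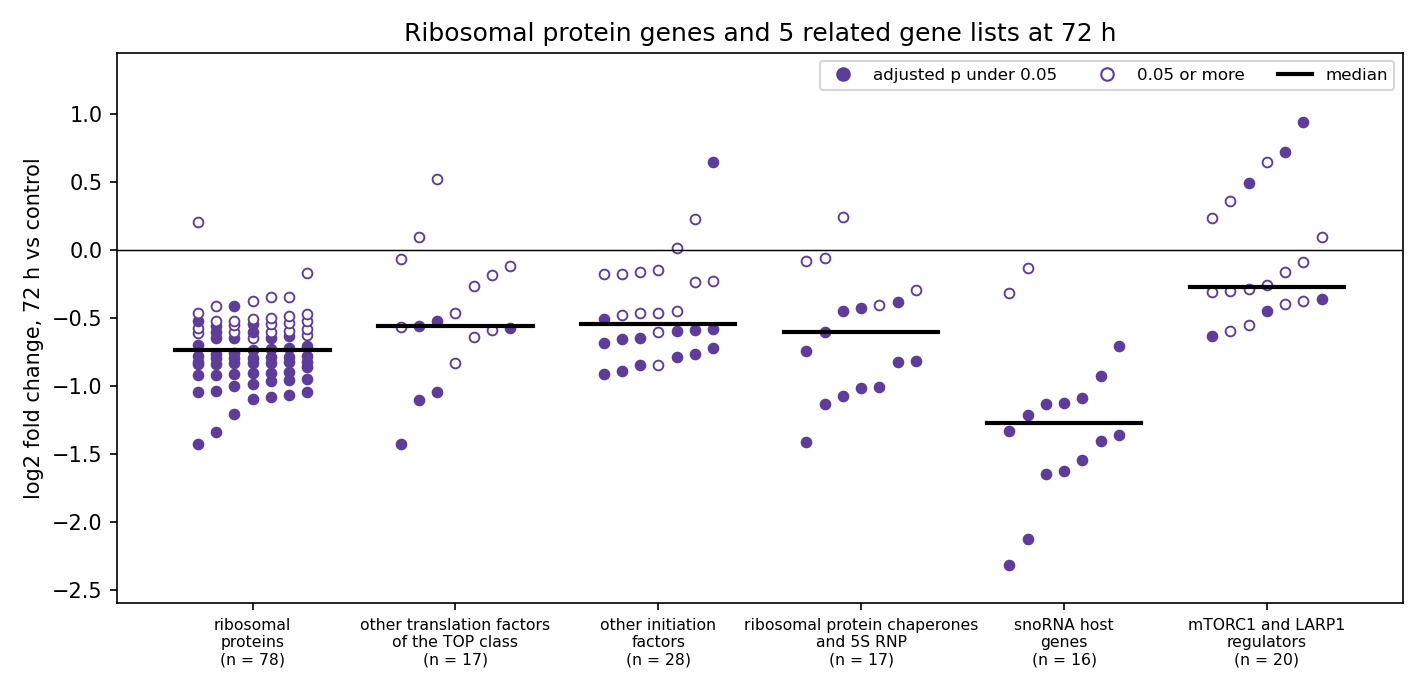
Log2 fold change at 72 h against control (y axis) for the 78 tested ribosomal protein genes and 5 related lists; filled points have an adjusted p under 0.05 and black bars are medians. The medians are -0.73 for the ribosomal protein genes, -0.56 for translation factors of the TOP class, -0.55 for other initiation factors, -0.60 for ribosomal protein chaperones and related genes, -1.27 for the host genes of small nucleolar RNAs and -0.27 for regulators of mTORC1 and LARP1.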

How the data were processed

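RNA sequencing libraries were made with a NEBNext Ultra kit from 9 samples, per the labels' protocols. The authors deposited 1 table of read counts per library, not normalized, on human genome build hg38. The submitters' processing notes name featureCounts 1.5.0-p1, STAR 2.5.2a, FastQC 0.11.5 and bcl2fastq 2.17.1.14. Annotation release, strand setting and use of multi-mapped reads: not given in the sources used here. Symbols and types came from GENCODE release 29, which held 57895 of the 58233 identifiers; the 338 others took 0.0145% to 0.0202% of counts per library.

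All counts were fitted in 1 edgeR 4.0.16 quasi-likelihood model (R 4.3.3, TMM scaling, filterByExpr, group as the only term, all 9 libraries), with Benjamini-Hochberg adjustment over the 15440 genes that passed and a threshold of 0.05. The standard error is the log2 fold change divided by the root of F. Levels are CPM on TMM-scaled totals, and RPKM uses the median length of basic coding transcripts. The fit was tested on simulated counts. Libraries within groups differed beyond sampling noise (chi-square per degree of freedom 8.99 to 159).

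Members and lists were chosen with earlier results of these data known. Genes named with values are the 8 lowest and 8 highest members at 48 h and at 72 h, 4 and 4 between the times, the 4 with the largest change of share, a fixed set of members and relatives, and 2 lowest and 2 highest of each longer list at 72 h. RPL35, RPL3L, and genes named for their level or share were added after their values were seen. Some genes that this rule or the gene-labelled plots would name are not reported here; counts, sums and medians include them.

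Replicate numbers mark passages in the labels, so the block pairs libraries of a passage. Deviations of libraries with the same number from their group means correlated at 0.04 to 0.13 between control and treated groups and at -0.02, 0.46 and 0.46 between 48 h and 72 h. Alternatives were other scalings, DESeq2 1.42.0, other filters, the replicate block, only the groups compared, GC and length corrections and leaving out libraries. The transcript length correction, leaving out passage 8, and the shares and spread without its 72 h library were chosen after seeing the data.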

Additional observations from a re-analysis of the deposited data

How the results depend on the processing

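All medians and summed shares of the ribosomal protein genes kept their direction under every alternative run. Of the alternatives for single named genes, 2784 kept direction and side of the threshold, 133 lost the call, 83 gained it and 24 changed sign. Of those for counts of calls over the lists or over all genes, 133 moved by over 1.5 times and 1127 did not. With the replicate block, 24 members fell at 48 h (30.8%, against 16.5% of all genes) and 65 at 72 h (83.3%, against 20.5%). Between the times 0 fell, so the block moved no count by over 1.5 times. Among named genes, the block ended the call of RPL9 at 48 h (adjusted p = 0.0512) and added calls for RPS18 at 48 h (0.0493) and for EEF2 (0.0265), FAU (0.0182), RPL10 (0.0186), RPL34 (0.0235) and RPS15A (0.0271) at 72 h, all lower, and it changed no other call of a named gene. Counts of members lower at 48 h (18) were 33 with no filter on low counts (41.3% of members, against 6.15% of all genes), 38 with only the 2 groups compared (48.7%, against 20.1%) and 11 with GC and transcript length correction (14.1%, below the 17.2% of all genes; 15.4% against 17.4% with exon length), which also called RPS27L higher at both times (1 in place of 0). Leaving out 1 library gave 3 to 45 members lower at 48 h (3.85% to 57.7%, where 8.46% and 20.1% of all genes were called lower). At 72 h it gave 22 to 57 (28.2% to 73.1%, where 13.0% and 16.8% of all genes were). Where it left 2 libraries in a group, the spread was pooled over groups. The count between 48 h and 72 h was 1 with no filter (RPS27A, adjusted p = 0.0375), 0 otherwise. The causes of these moves were not tested.

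Signs changed as follows, all in values that did not pass the test. Leaving out 1 library in turn, log2 fold changes ran at 48 h from -0.19 to 0.34 for SESN3. At 72 h they ran from -0.0097 to 1.03 for DDIT4, -0.18 to 0.11 for EEF1A1, -0.086 to 0.23 for EIF4A2, -0.13 to 0.030 for RPS19BP1 and -0.28 to 0.023 for SNHG20, and between the times from -0.094 to 0.25 for RPL41 and -0.019 to 0.23 for RPS10. Without passage 8, RPS16 was 0.14 at 48 h and 0.23 at 72 h, RPLP1 0.11, EIF2B4 0.040 and SESN3 -0.31 at 48 h, EIF4A2 -0.052 at 72 h and RPL41 -0.022 between the times. The GC and transcript length correction gave RPL37 0.042 and RPL39 0.0045 at 48 h and RPS19BP1 0.0012 at 72 h. SESN3 at 48 h was -0.0098 with the replicate block and -0.028 with the block and the GC and exon length correction. With 3 libraries a group and little unique coding sequence, small changes of RPS27, RPS10 and RPS26 could not be resolved.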
